A study of Mus musculus with 8 samples.

Results

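The C2H2 zinc finger genes with a numbered Zfp symbol were followed in TCMK-1 cells, an SV40-transformed epithelial line from mouse kidney tubule, after knockdown of smgGDS under cisplatin. Genes were taken as members where the deposited table assigned them to the transcription factor family zf-C2H2 and named them Zfp with a number, with Zfp385a left out. This rule gave 324 of the 21879 genes in the table, and 254 of them had enough counts to be tested. The remaining 280 genes of the family are all those outside this rule, 149 of them tested, and served as the nearest relatives for comparison. The rule used no expression value, but it was chosen with earlier results of these data known.

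Each of the 4 control libraries came from cells with a control shRNA, and each of the 4 knockdown libraries from cells with an shRNA against smgGDS, a guanine nucleotide exchange factor and chaperone of small GTPases encoded by Rap1gds1. All 8 carried 20 µM cisplatin, which crosslinks DNA, so the comparison is of the knockdown among drug-treated cells, and untreated cells were not analysed here. The labels do not tell whether the libraries of a group are separate cultures or clones, so p-values measure only the spread between these samples, and that spread may be technical. Polyadenylated RNA was sequenced.

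C2H2 zinc fingers are short folds held by a zinc ion between a pair of cysteines and a pair of histidines. Arrays of them read DNA, each finger touching a few bases. The largest mammalian class joins the array to a KRAB domain, which recruits TRIM28 (KAP1), and through it the histone methyltransferase SETDB1 and HP1 proteins, to place H3K9 trimethylation over retrotransposons and imprinted loci. KRAB zinc finger genes lie in tandem clusters that arose by duplication. Members without KRAB include activators and repressors of ordinary promoters, and some that act outside transcription.

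The members' proteins fit their label. Translated from GENCODE M21 coding sequences, all 324 had a protein, and all but 3 held at least 1 stretch with the finger spacing (C, 2 or 4 residues, C, 12 residues, H, 3 to 5 residues, H). The median was 11 fingers and the most was 36, in Zfp142. A KRAB A box was found in 187 members by a pattern of 11 scored positions, of which 8 had to match. That threshold was set after the scores were seen, with 4 members at 8 matches and 5 just outside at 7. A tryptophan at the last scored position was also required. A KRAB box without it would be missed, and its gene counted as without KRAB. KRAB members had a median of 12 fingers and the 137 others a median of 9.

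Rap1gds1 fell to 2.63 ± 0.19 CPM (counts scaled to library size, SD, n = 4) in the knockdown from 16.2 ± 0.80 in the controls, and its counts of 30 to 38 against 181 to 276 left no overlap (log2 fold change -2.62, SE 0.13, edgeR quasi-likelihood adjusted p = 2.72e-19). Library totals ran from 11560977 to 16059158 counts. Knockdown replicate 4 stood somewhat apart, holding the lowest of the 8 values for 19.2% of all tested genes, against 10.1% to 16% in each other library. Of 11 tubule markers 6 were tested, with Aqp1 the most abundant (155 CPM in the controls, 127 in the knockdown), while Hnf4a was at 0 and Cdh1 and Pax2 reached at most 5 counts in any library. The summed tubule list was 166 to 185 CPM in controls against 138 to 143 in the knockdown, with 1 fall. The leukocyte list summed to 131 to 141 and 110 to 119 CPM, from Cd14, which fell, and Cd68. Its defining genes were absent or nearly so: Adgre1 and Cd3e were at 0 and Ptprc reached 1 count. Endothelial genes summed to 7.63 to 9.69 CPM in controls against 11.7 to 13.3 in the knockdown with 1 of 5 tested, Flt1, which rose, while Pecam1, Kdr, Cdh5 and Tek reached at most 6 counts. Fibroblast and pericyte genes summed to 13.9 to 16.6 and 17.02 to 19.7 CPM with 2 of 5 tested, Dcn and Pdgfrb, and both rose. The part of these shifts in the results below was not tested.

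Many members fell by small amounts in the knockdown and very few rose. A gene is called where its edgeR quasi-likelihood p, adjusted over all 11576 tested genes, is below 0.05. Of the 254 tested members 33 fell, which is 13% of them against 9.15% of all tested genes, and 3 rose, which is 1.18% against 11.1%. In either direction 36 were called, 14.2% against 20.2%, with a median level of 7.29 CPM in the members and 19.0 CPM in all tested genes. The difference in these shares was not tested. All fold changes are log2 values of the knockdown less the control. Their median was -0.13 over the members, with the middle of the distribution between -0.25 and -0.03, and -0.00 over all tested genes. A value below 0 was found for 204 members, or 80.3%, and for 51% of all tested genes. In 38 members all knockdown libraries lay below all controls (15%, against 9.61% of all tested genes), and in 2 they lay above (0.787%, against 11.5%).

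**Figure D1:**
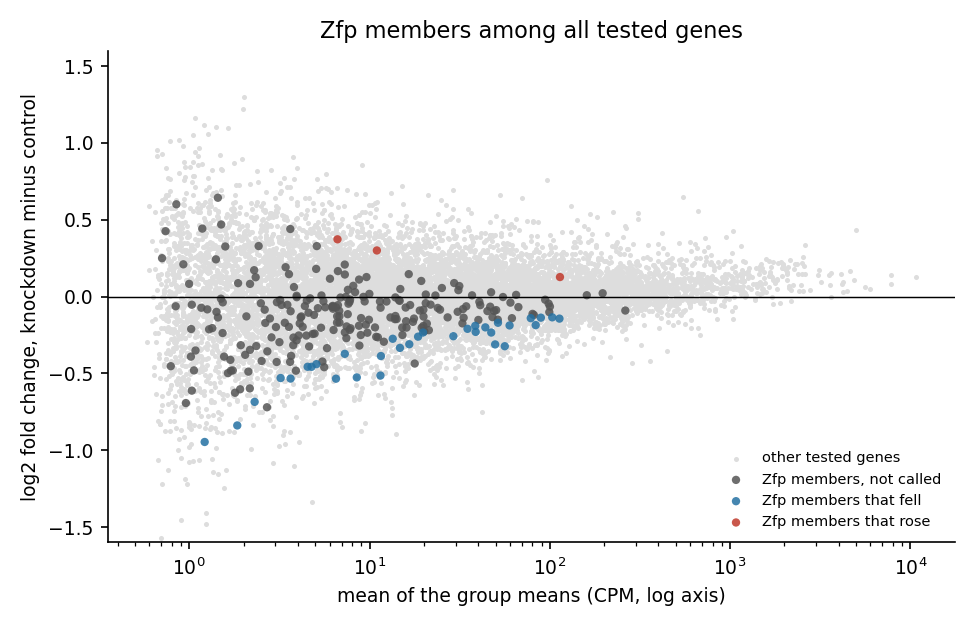
Log2 fold change (vertical axis) against mean level in CPM (horizontal log axis) for the 254 tested Zfp members (large points, blue where they fell, red where they rose, dark where not called) over all other tested genes (small pale points, 2 of which lie outside the axis). The 33 falls spread over the whole range of levels, and the cloud of members sits below 0 with a median of -0.13.

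The low side held at every level of expression. Among members with a mean of 20 CPM or more, 15 of 60 fell (25%, against 12.7% of all genes at that level) and 1 rose (1.67%, against 17.9%). Between 5 and 20 CPM, 11 of 96 fell (11.5%, against 8.29%) and 2 rose (2.08%, against 6.8%). Below 5 CPM, 7 of 98 fell (7.14%, against 2.92%). No member of that lowest band rose by this test, where 2% of all its genes did. The medians were -0.09, -0.13 and -0.20 from the highest to the lowest band. These bands use the mean over all 8 libraries, so they do not favour either group.

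Other C2H2 genes shifted as the Zfp members did. Of the 149 tested, 26 fell (17.4%) and 2 rose (1.34%), with a median of -0.12 and 73.2% below 0. Beside each other the counts and medians of both sets are close, and the difference between them was not tested.

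**Figure D2:**
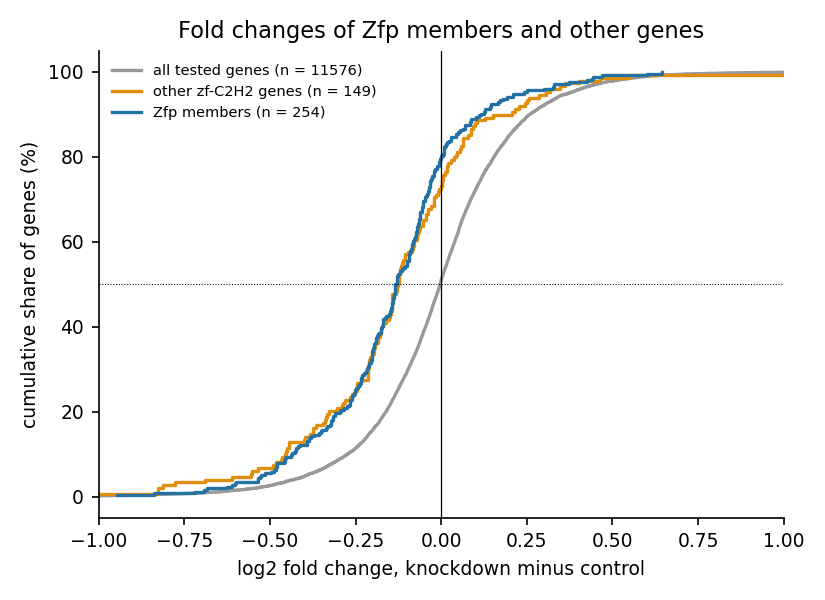
Cumulative share of genes in percent (vertical axis) by log2 fold change (horizontal axis) for all 11576 tested genes, the 149 other zf-C2H2 genes and the 254 Zfp members. The curves of the Zfp members and of their relatives run close together, crossing 50% near -0.13 and -0.12, while the curve of all genes crosses at about -0.00.

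The downward shift was present in each knockdown library. Summed over the members, the level was 4994, 5030, 4886 and 4857 CPM in control replicates 1 to 4. In knockdown replicates 1 to 4 it was 4632, 4713, 4595 and 4500 CPM. All knockdown sums lay below all control sums, with means of 4942 ± 83.3 and 4610 ± 88.4 CPM (SD, n = 4 each). As a share of all counts the members took 0.503% ± 0.0132 in controls and 0.452% ± 0.0112 in the knockdown. In bulk RNA, fewer cells expressing a gene and less RNA per cell cannot be told apart. The median member stood 0.12, 0.09, 0.12 and 0.13 log2 units under its control mean in knockdown replicates 1 to 4, on a log2(CPM + 0.5) scale. A knockdown library gave the lowest value for 187 of the 254 members (73.6%, against 51.8% of all tested genes), and replicate 4 alone did so for 65 (25.6%).

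**Figure D3:**
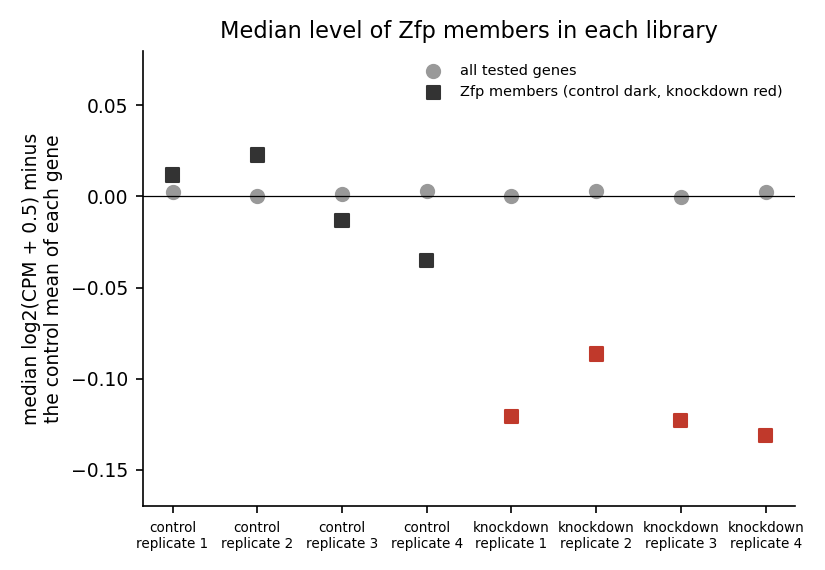
Median difference of log2(CPM + 0.5) from each gene's control mean (vertical axis) in the 8 libraries (horizontal axis), for Zfp members (squares, dark in controls and red in the knockdown) and for all tested genes (grey circles). The members' medians lie between -0.04 and 0.02 in controls and between -0.13 and -0.09 in the knockdown, while those of all genes stay at 0.00.

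The count of falls depended on single libraries and on the tool more than the direction did. Without control replicate 1 it was 20 of 255 tested members (6.99% of all tested genes lower), and without control replicate 2 it was 19 of 258 (6.97%). With DESeq2 it was 20 of 254 (7.66%), and at a threshold of 0.01 it was 13 of 254 (5.01%). At these settings the share of members that fell was close to that of all tested genes. With scaling by library total the count was 60 (16.9%), and without knockdown replicate 4 it was 25 (6.87%). It was 42 both on the FPKM scale (12.8%) and with an adjustment for length and GC content (8.64%). No rise was called under total scaling (6.62% of all tested genes higher), DESeq2 (9.49%), FPKM (5.11%) or the length and GC adjustment (12.1%). The same held when control replicate 1 (8.98%), 2 (9.13%) or 3 (9.76%) or knockdown replicate 4 (8.85%) was left out. In these fits, in that order, 2, 3, 2, 4, 3, 3, 3 and 3 members were higher at an unadjusted p under 0.05. The median stayed below 0 in every alternative run, between -0.19 and -0.11. Its lowest value came with total scaling, where the median of all tested genes was itself -0.06, and on the FPKM scale that was -0.05. The members' median less that of all tested genes was -0.13 under total scaling and -0.09 on the FPKM scale. Of the 33 falls 12 were called whichever library was left out. The matching share of other genes that fell is not given here.

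The 33 falls were modest, with a median of -0.31 and a range from -0.13 to -0.95. In 21 the groups did not overlap and in 12 they did. A call and separate groups rest on the same values, so the 21 are no added support. The smallest adjusted p was that of Zfp334 (ncbi_228876, chr2:165374264-165388315 on GRCm38.p6), which encodes a KRAB protein with 14 fingers. It measured 64.4, 66.6, 59.8 and 59.1 CPM in control replicates 1 to 4 and 50.5, 53.4, 49.5 and 46.8 CPM in knockdown replicates 1 to 4. All 4 knockdown values lay below the lowest control (log2 fold change -0.32, SE 0.05, edgeR adjusted p = 2.08e-05), and the knockdown mean was 79.9% of the control mean.

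Neighbouring genes Zfp251 (ncbi_71591, chr15:76852131-76871435) and Zfp7 (ncbi_223669, chr15:76879253-76892395) both fell. Zfp251 had 53.1, 58.9, 57.7 and 50.5 CPM in the controls against 45.0, 47.0, 46.9 and 39.0 CPM in the knockdown (-0.31, SE 0.06, adjusted p = 0.000168). Its knockdown replicate 4 was the lowest library, and the groups stayed apart. Zfp7, with KRAB and 16 fingers, was among the more abundant members. It had 89.6, 94.0, 87.05 and 84.7 CPM in controls against 79.6, 80.4, 75.6 and 77.3 CPM in the knockdown (-0.19, SE 0.05, adjusted p = 0.00258). The next gene in that run, Zfp647, was at -0.08 and was not called.

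Larger falls came from less abundant members. Zfp60 (ncbi_22718, chr7:27731409-27751689), a KRAB gene with 19 fingers, had 7.69, 7.24, 8.59 and 7.36 CPM in controls against 6.06, 4.71, 5.85 and 4.63 CPM in the knockdown (-0.53, SE 0.14, adjusted p = 0.0038). Its knockdown libraries all lay lower, at 69.0% of the control mean. Zfp874b (ncbi_408067, chr13:67471513-67486241) had 9.23, 9.59, 9.77 and 11.6 CPM in controls against 6.56, 8.17, 6.65 and 6.39 CPM in the knockdown (-0.53, SE 0.12, adjusted p = 0.00151). Its counts were not whole, so reads may be shared with similar copies and its level is less certain. The fall of greatest size among the 33 was that of Zfp941, named after its values were seen, at 1.603 ± 0.302 and 0.832 ± 0.364 CPM (-0.95, SE 0.33, adjusted p = 0.0336). It reached the filter's 0.739 CPM in all controls but not in knockdown replicates 1 and 3 (0.713 and 0.401 CPM). Its place among the tested genes therefore rested on the controls. At such levels 3 counts correspond to 0.181 to 0.257 CPM, and its call was lost without control replicate 2 or 3 or knockdown replicate 1 or 3.

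Among the remaining genes with the smallest adjusted p-values, Zfp9 (chr6:118461950-118479961, KRAB) had 50.1 to 52.4 CPM in controls against 39.7 to 46.3 CPM in the knockdown (-0.23, SE 0.06, adjusted p = 0.00208). Zfp637 on the same chromosome (117840588 to 117845957), with 6 fingers and no KRAB box found, had 15.3 to 17.7 CPM and 12.3 to 14.1 CPM (-0.33, SE 0.10, adjusted p = 0.00919). In both genes the groups were apart. Zfp408 (chr2:91642756-91650051), whose human counterpart is linked to inherited retinal disease, had 39.4 to 44.8 CPM and 33.2 to 39.6 CPM, with a slight overlap (-0.23, adjusted p = 0.00831), and it lost its call without control replicate 1 (adjusted p = 0.0536). Zfp275 on the X chromosome (73342593 to 73359080) had 44.8 to 48.4 CPM and 37.0 to 45.6 CPM, again overlapping (-0.20, adjusted p = 0.0152). Without knockdown replicate 1 or 3 it was not called (adjusted p = 0.0542 and 0.0828). Zfp9 and Zfp408 had counts that were not whole.

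**Figure D4:**
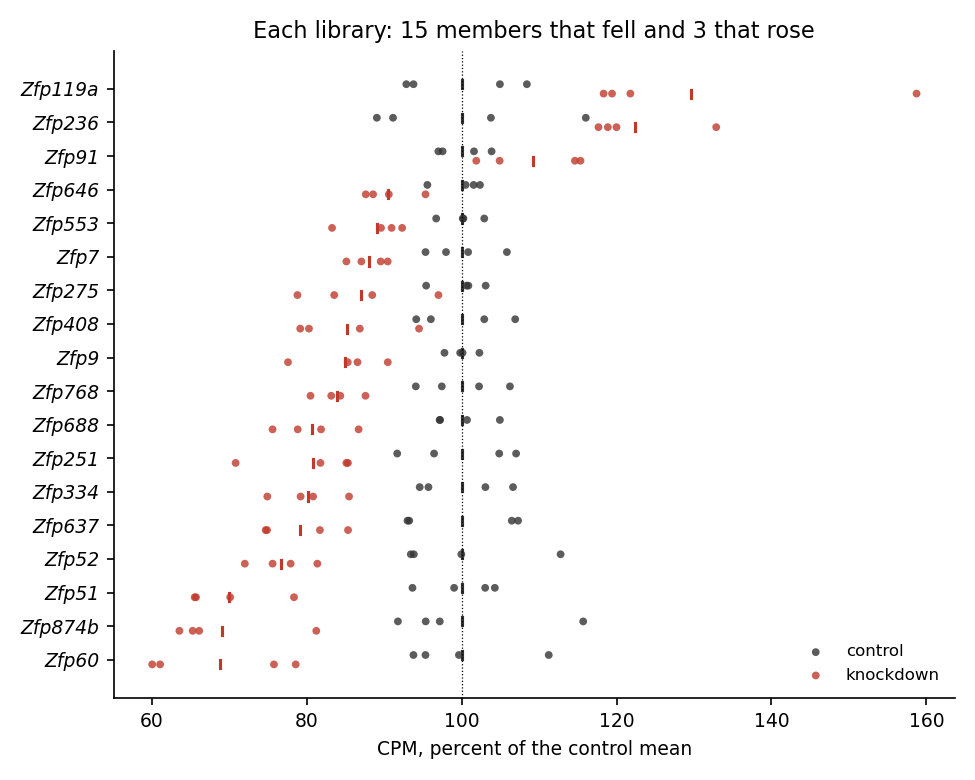
CPM in each library as a percent of the gene's control mean (horizontal axis) for the 15 falls with the smallest adjusted p-values and the 3 rises (rows), controls dark and knockdown red, short bars marking group means. Zfp334, Zfp51 and Zfp60 show clear gaps between groups, Zfp408 and Zfp275 overlap at the edge, and knockdown replicate 4 of Zfp119a stands far to the right at 9.19 CPM.

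The 3 rises were small and unstable. Zfp91 encodes a ubiquitin ligase that acts on the NF-kB-inducing kinase NIK. It had 111, 106, 106 and 113 CPM in controls against 111, 125, 114 and 126 CPM in the knockdown, so the groups overlapped (0.13, SE 0.04, adjusted p = 0.0317). Zfp236 had 8.80, 10.3, 9.005 and 11.5 CPM in controls against 13.1, 11.6, 11.9 and 11.7 CPM (0.30, SE 0.11, adjusted p = 0.0453), with the nearest libraries of the groups almost touching. Zfp119a, a KRAB gene with counts that are not whole, had 6.28, 5.43, 5.38 and 6.07 CPM against 6.85, 6.91, 7.05 and 9.19 CPM (0.37, SE 0.14, adjusted p = 0.0473). None of the 3 was called in all 8 fits that left out a library, and none was called by DESeq2, where their adjusted p-values were 0.0574, 0.0846 and 0.094. The highest positive value of any member belonged to Zfp1, another named after its values were seen, at 1.13 ± 0.278 and 1.75 ± 0.578 CPM (0.64, SE 0.30). It was not called (adjusted p = 0.128).

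The members most abundant per transcript length did little. On the authors' FPKM scale (fragments scaled for transcript length and depth), tested members had a median of 1.95, and 69 were under 1. Zfp622, whose product works in maturation of the large ribosomal subunit, was highest at 93.6 FPKM. It had 263 to 278 CPM in controls against 234 to 267 CPM in the knockdown, overlapping, and was not called (-0.09, SE 0.03, adjusted p = 0.0587), though it passed in 7 of 19 alternatives. Zfp367 followed at 56.3 FPKM with a fold change of 0.02 (95% interval -0.05 to 0.09), and Zfp664 at 39.3 FPKM with 0.01 (-0.07 to 0.08). Zfp410, an activator dedicated to the chromatin remodeller gene Chd4, was at 37.9 FPKM and -0.02 (-0.13 to 0.09), and Chd4 itself was at 0.04 (SE 0.04, adjusted p = 0.527). The signs of Zfp367, Zfp664 and Zfp410 turned with scaling or with the library left out. Zfp146, the fifth at 37.6 FPKM, fell from 93.5 ± 2.38 to 84.99 ± 3.28 CPM (-0.14, SE 0.04, adjusted p = 0.0229). Its groups did not overlap, but without control replicate 2 or 3 or knockdown replicate 1 or 4 the adjusted p was 0.0621 to 0.0675.

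Members with studied functions were looked up from a list of 28 Zfp symbols, of which 17 are members and 16 were tested. The other 11 lie outside the members because the table does not place them in zf-C2H2. Zfp281, a repressor and activator known from embryonic stem cells, fell from 21.4 ± 2.19 to 18.3 ± 1.11 CPM (-0.23, SE 0.09, adjusted p = 0.0471), with overlapping groups. It was not called under DESeq2 (adjusted p = 0.0773), on the FPKM scale (0.0744), without control replicate 1 or 2 (0.106 and 0.216) or without knockdown replicate 1, 3 or 4 (0.0874, 0.0921 and 0.12). Zfp57, which binds methylated imprinting control regions, had 64.4, 67.5, 62.0 and 64.8 CPM in controls against 63.3, 57.1, 59.7 and 54.5 CPM. The groups overlapped through knockdown replicate 1 and the threshold was just missed (-0.14, SE 0.05, adjusted p = 0.0505). It was passed in 9 of 19 alternatives, among them the replicate block (0.0358) and FPKM (0.0183). Zfp445, the other KRAB protein known to guard imprints, was at -0.05 (95% interval -0.13 to 0.04). Zfp568, which represses a placental promoter of Igf2, was at -0.32 (SE 0.13, adjusted p = 0.0665) and passed in 5 of 19. Zfp809, which starts silencing of retroviral DNA, had 8.18, 8.26, 8.80 and 7.27 CPM against 7.13, 6.76, 7.05 and 6.07 CPM, separated groups that did not pass (-0.27, SE 0.13, adjusted p = 0.128) except on the FPKM scale (0.0371).

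The other listed members tested were not called. Zfp143, which binds a conserved promoter element, was at -0.16 (95% interval -0.35 to 0.02). Zfp217, a corepressor partner whose human counterpart is amplified in breast cancer, was at -0.15 (adjusted p = 0.317). Zfp384 and Zfp148 were at 0.07 and 0.04 (adjusted p = 0.558 and 0.854). Zfp335, a coactivator subunit, was at 0.06 (adjusted p = 0.67). The signs of Zfp148 and Zfp335 turned with scaling by library total. Zfp260, Zfp292 and Zfp655 lay at -0.16, -0.30 and -0.13, and Zfp407 at 0.13, with adjusted p-values from 0.273 to 0.521.

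Members with and without a KRAB box found behaved much alike in direction. With KRAB, 144 were tested, 18 fell (12.5%) and 1 rose (0.694%), with a median of -0.14 and 81.9% below 0. Without KRAB, 110 were tested, 15 fell (13.6%) and 2 rose (1.82%), with a median of -0.09 and 78.2% below 0. Of all tested genes 9.15% fell, 11.1% rose and 51% were below 0. The KRAB members were less abundant, at a median of 1.62 FPKM against 3.45, and 46 of them had counts that were not whole against 14 of the others. The difference in medians therefore came with a difference in level and was not tested. Genes whose KRAB box the pattern missed would sit among the members without KRAB. In a run on chromosome 7 (24081877 to 24316698) no box was found in any of the 6 tested members. Whether the pattern missed boxes there was not tested. The class without KRAB may therefore be mixed, which limits the comparison.

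Zfp genes sit in runs, taken here as members at most 250 kb from the next member on a chromosome. Runs of 3 or more held 176 of the 324, in 26 runs of up to 23 members. Chromosome 7 carried 84 members, 66 tested and 9 with a fall, and chromosome 17 carried 40, 37 tested, 6 with a fall and 1 with a rise. Of the 136 tested members in such runs 19 fell (14%), 1 rose (0.735%) and 86% were below 0, with a median of -0.14. Of the 118 outside them 14 fell (11.9%), 2 rose (1.69%) and 73.7% were below 0, with a median of -0.09. Over all tested genes 9.15% fell, 11.1% rose and 51% were below 0. The differences in these shares were not tested.

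The run with the highest number of falls lay on chromosome 17 (21383707 to 22456689) and had 15 members. All 13 tested there carried a KRAB box. Zfp51, Zfp52, Zfp54, Zfp948 and Zfp944 fell, 12 of 13 lay below 0, and the median was -0.21. Over all tested genes 9.15% fell and 51% were below 0. The run is shown by promoter sequence because its genes are duplicates whose upstream bases can be laid side by side. Each line gives a stretch of 40 bases upstream of the annotated start, 5′ to 3′ along the gene, from RefSeq on GRCm38.p6. The Zfp54 stretch is the part of its promoter most alike in its neighbours, and the others are their best match to it. The stretches end 49 bases before the start in Zfp54, 7 in Zfp52, 110 in Zfp948, 79 in Zfp53 and 199 in Zfp820. Capitals mark the same base as in Zfp54 at that place.
Zfp54 (fell, chr17:21423139-21423178, plus strand): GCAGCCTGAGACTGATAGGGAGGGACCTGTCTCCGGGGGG
Zfp52 (fell, chr17:21535493-21535532, plus strand): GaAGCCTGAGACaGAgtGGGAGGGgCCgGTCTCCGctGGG
Zfp948 (fell, chr17:21566829-21566868, plus strand): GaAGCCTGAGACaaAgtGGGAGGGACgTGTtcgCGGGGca
Zfp53 (not called, chr17:21488870-21488909, plus strand): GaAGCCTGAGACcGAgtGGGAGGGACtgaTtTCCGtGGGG
Zfp820 (not tested, chr17:21845958-21845997, minus strand): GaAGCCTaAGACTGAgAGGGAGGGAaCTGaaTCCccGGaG

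Identity to Zfp54 was 32 of 40 bases in Zfp52, 31 in Zfp53 and Zfp820 and 29 in Zfp948, and in 314 windows of members outside the run the best stretch had a median of 18 and at most 24. The rest of the run was less alike: Zfp946 matched 26, Zfp947 24 and Zfp677 23, and Zfp760, Zfp229, Zfp942, Zfp943, Zfp944 and Zfp758 matched 18. Zfp53, alike in sequence, was not called, at -0.13 (SE 0.18, interval -0.48 to 0.23, edgeR adjusted p = 0.667). Its interval includes the -0.39 of Zfp52, so the missing call does not show that Zfp53 stayed level. Zfp944, at 18 of 40, fell, but its call held in only 2 of the 8 fits with a library left out. Whether shared sequence went with the falls was not tested. No window was given for Zfp51. Because the stretch was picked for likeness within the run, the identities are a description.

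Within the run Zfp51 (ncbi_22709, chr17:21450374-21465591), with 19 fingers, showed the smallest adjusted p. Its values were 12.7, 14.1, 13.4 and 13.9 CPM in controls against 9.49, 10.6, 8.89 and 8.87 CPM in the knockdown, a clear gap (-0.51, SE 0.10, adjusted p = 0.000277). Zfp52 (chr17:21533725-21563362) had 14.8, 13.1, 12.3 and 12.2 CPM and 10.2, 9.90, 10.7 and 9.43 CPM, also apart (-0.39, SE 0.10, adjusted p = 0.006). Both calls held in all 8 fits with a library left out. Zfp54 had 4.25, 4.58, 4.75 and 3.68 CPM against 3.35, 2.91, 2.48 and 3.20 CPM (-0.53, SE 0.18, adjusted p = 0.0289), apart but low. Zfp948, at 63.7 ± 2.98 and 56.0 ± 6.01 CPM (-0.19, adjusted p = 0.0194), and Zfp944, at 8.21 ± 1.02 and 6.37 ± 1.26 CPM (-0.37, adjusted p = 0.0489), overlapped. The calls of Zfp54, Zfp948 and Zfp944 were each lost when some libraries were left out, with adjusted p-values up to 0.0996, 0.131 and 0.181. These 3 were named for the run after their values were seen, as were Zfp53 and Zfp647. The counts of all 5 were whole.

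The run with the next highest number of falls lay on chromosome 7 (127233061 to 127885996) and had 10 members, all tested. Of these 4 carried KRAB, 4 fell and 9 lay below 0, with a median of -0.16. Over all tested genes 9.15% fell and 51% were below 0. Zfp768 (127342795 to 127345314) had 29.9 to 33.7 CPM in controls and 25.5 to 27.8 CPM in knockdown libraries (-0.26, SE 0.07, adjusted p = 0.00524). Zfp688 (127418963 to 127423241), a short KRAB protein with 2 fingers, had 17.9 to 19.3 CPM and 13.9 to 15.9 CPM (-0.31, SE 0.09, adjusted p = 0.00876). In both the groups did not overlap. Zfp646 (127876914 to 127885996), with 27 fingers and counts that are not whole, was at 114 to 122 CPM and 104 to 113 CPM (-0.14, SE 0.04, adjusted p = 0.00993). Zfp553 (127233061 to 127238197) was at 52.8 to 56.2 CPM and 45.4 to 50.4 CPM (-0.17, SE 0.05, adjusted p = 0.0194). Zfp553 was lost without control replicate 1 or knockdown replicate 1 (adjusted p = 0.0681 and 0.0983) and with a length and GC adjustment (0.152).

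Other large runs held few calls, beside 9.15% of all tested genes that fell. On chromosome 7 from 29768552 to 30169775, 14 of 15 members were tested, Zfp146 alone fell, and the median was -0.17. On chromosome 13 from 67038594 to 67827000, 11 of 23 were tested, Zfp874b alone fell, and the median was -0.25. On chromosome 17 from 32765496 to 33631716, 12 of 13 were tested and the median was -0.08. No member of that last run passed the edgeR test.

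**Figure D5:**
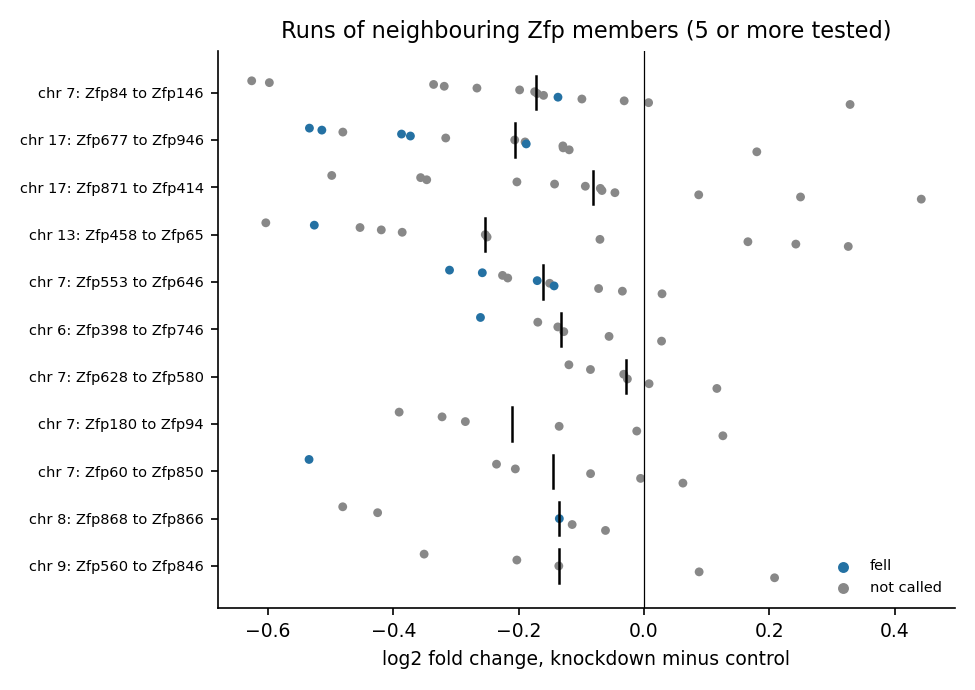
Log2 fold change (horizontal axis) of each tested member in the runs with at least 5 tested members (rows, named by chromosome and by their end members), blue where it fell and grey where not called, with a black bar at the run's median. Most points lie left of 0 in nearly every run, and the chromosome 17 run from Zfp677 to Zfp946 has 5 blue points.

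Promoter windows of 300 bases (250 before and 50 after the start) were searched on both strands for 4 short textbook motifs. ACTACAATT, the core of the element that Zfp143 binds, lay in 2.28% of the 263 windows of tested members, in 0.728% of the 11809 windows of all tested genes, and in no window of the 29 from members that fell. CCAAT, the NF-Y box, lay in 48.3%, 38.2% and 31% of the same sets. The ETS site CCGGAAGT lay in 12.9%, 8.35% and 10.3%. The palindrome CTCGCGAG lay in 0.38% and 1.87%, and in no window of the members that fell. In the 164 windows of the other tested zf-C2H2 genes, CCAAT lay in 54.9%, CCGGAAGT in 8.54%, CTCGCGAG in 1.22% and ACTACAATT in none. The 29 windows came from 26 of the 33 falls, too few for the absence of a rare motif to be read as a lack of it. None of the 4 contains another, and a match is only a match of letters.

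The fixed list of TRIM28 and heterochromatin partners held both rises and falls. Trim28 was abundant and not called, at 1016 ± 14.7 CPM in controls against 1053 ± 33.9 in the knockdown (0.05, SE 0.03, adjusted p = 0.193). Setdb1 was at 0.03 (SE 0.06, adjusted p = 0.825). Of 25 partners, all tested and including Zfp57, 6 rose (24%) and 4 fell (16%), against 17.9% and 12.7% of all genes at 20 CPM or more, since the partners' median level was 108 CPM. Over all levels the shares were 11.1% and 9.15%. The differences in these shares were not tested. The partners had a median fold change of 0.04 that turned to -0.02 with scaling by library total and on the FPKM scale.

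The largest rises among the partners were in Atrx and Daxx, whose products together deposit histone H3.3 in heterochromatin. Daxx had 207 ± 7.85 CPM in controls against 261 ± 13.8 in the knockdown (0.34, SE 0.04, adjusted p = 2.70e-09). Atrx had 41.4 ± 2.17 and 54.6 ± 4.02 CPM (0.40, SE 0.06, adjusted p = 1.68e-06). Both were higher in every knockdown library. The deacetylase complex genes Chd3 (0.16, adjusted p = 0.000399) and Hdac1 (0.12, adjusted p = 0.00176) and the HP1 beta gene Cbx1 (0.13, adjusted p = 0.0222) rose less. Their relatives on the list were not called. Hdac2 was at -0.08 and lower in every knockdown library (edgeR adjusted p = 0.103), Chd4 was at 0.04, and the HP1 gene Cbx5 was at 0.01 (adjusted p = 0.95). Chd3 lost its call on the FPKM scale (adjusted p = 0.0922). Hdac1 and Cbx1 lost theirs with scaling by library total (adjusted p = 0.0807 and 0.235) and on the FPKM scale. Cbx1 was also lost without control replicate 1 or knockdown replicate 1 or 2.

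The 4 falls were in Uhrf1, which directs maintenance DNA methylation (-0.15, adjusted p = 0.0004), in the HUSH complex gene Mphosph8 (-0.31, adjusted p = 0.0059), in Morc3 (-0.26, adjusted p = 0.0124) and in the HP1 gamma gene Cbx3 (-0.14, adjusted p = 0.0176). All 4 were lower in every knockdown library. The HUSH complex genes Fam208a and Pphln1, with counts that were not whole, were at 0.16 and 0.10 and not called (edgeR adjusted p = 0.436 and 0.364). Without knockdown replicate 4 the adjusted p was 0.0629 for Morc3 and 0.0904 for Cbx3. Without control replicate 2 it was 0.0596 for Morc3 and 0.0565 for Mphosph8, and without control replicate 4 it was 0.0687 for Cbx3.

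The 70 members that were not tested had little signal. The filter asks for about 10 counts, or 0.739 CPM, in at least 4 libraries, and 7 of the 70 were at 0 in every library, with 22 the highest count of any. Just inside lay Zfp811 with 14, 3, 9 and 11 counts in controls and 8, 6, 13 and 12 in the knockdown. Just outside lay Zfp820 with 9, 7, 8 and 11 against 9, 16, 9 and 18. Of the 254 that passed, 234 reached that level in all 8 libraries. Another 8 did so in all controls but not all knockdown libraries, and 3 the other way round, and 2 of these 11 were called, Zfp941 among them. The tested set is therefore not the whole family. At 20 CPM or more the filter could not have chosen between members.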

How the data were processed

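Poly(A) RNA was sequenced from 4 control and 4 knockdown libraries, grouped by their labels. The authors deposited expected counts and FPKM values of each gene, per the file headers. Per the submitters' processing notes the build was GRCm38.p6, and HISAT2 2.4, StringTie 1.3.1, Bowtie2 2.2.8, RSEM, fastp 0.18.0, edgeR and DESeq2 are listed without roles. The annotation release and strandedness are not stated in the labels or headers, and overlapping or antisense genes may be mixed. Counts were not whole (tolerance 1e-09) for 6.52% of values, with 60 tested members among the genes concerned, where similar copies may share reads.

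After rounding, edgeR 4.0.16 (R 4.3.3) was run with its default expression filter, TMM factors and a robust quasi-likelihood fit on group. Two-sided F-tests were adjusted by Benjamini-Hochberg over 11576 genes, at 0.05. CPM values use the TMM library sizes. Intervals cover 95%, rest on the spread between libraries, and floors of 3 counts cover counting error only. Replicates differed by more than sampling noise (chi-square per degree of freedom 1.94 to 3.98). The coefficient of variation between libraries of a group, beyond counting error, was 4.29% in edgeR.

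The members and lists were chosen with earlier results of these data known. Text names Rap1gds1, the 15 falls with the smallest adjusted p and all rises, the 5 members highest in FPKM, the tested members among 28 listed genes of known role, and called TRIM28 partners, of which some are not reported here. Some uncalled partners from the same list are named beside the called ones, chosen after their values were seen. Others named are stated as chosen after their values were seen. Positions come from a RefSeq gene table of GRCm38.p6, in which all 324 members were matched. Promoter windows (RefSeq) were matched for 274 members. Motif cores were searched after longer forms of the Zfp143 element and the palindrome had been tried and their values seen. Protein classes come from any complete GENCODE M21 isoform. Transcript length and GC were of the same release.

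Alternatives were DESeq2 1.42.0 and its size factors, limma 3.58.1 voom, library total scaling, other filters, whole counts only, limma on log2(FPKM + 0.5), a term for replicate number, leaving out libraries in turn, and 0.01 as threshold. A length and GC correction was added after seeing the data, and 134 tested genes, none a member, had no value for it. Simulated counts for the knockdown against the controls were used to check the test, with 11477 genes run. It called 23 of 50 genes at a log2 change of 0.3, 36 of 49 at 0.6, 47 of 49 at 1, 49 of 49 at 2 and 14 of the 11280 left alone.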

Additional observations from a re-analysis of the deposited data

Results flagged for a closer look

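In 6 of 110 groups of 4 libraries examined, a library lay far from the other 3, by the gap divided by the range against Dixon's 95% critical value. Chance flags about 1 in 20 groups. Zfp874b had 8.17 CPM in knockdown replicate 2, against 6.39 to 6.65 CPM in the others. Zfp236 had 13.1 CPM in knockdown replicate 1, against 11.6 to 11.9 CPM. Zfp119a had 9.19 CPM in knockdown replicate 4, against 6.85 to 7.05 CPM, and without that library its rise was not called (adjusted p = 0.237 by edgeR). Zfp384 had 35.3 CPM in control replicate 3, against 29.2 to 29.3 CPM. Zfp53 had 3.49 CPM in control replicate 3, against 4.58 to 4.79 CPM. The TRIM28 partner Morc3 had 20.5 CPM in knockdown replicate 4, against 23.5 to 23.9 CPM, and its fall was not called without it (adjusted p = 0.0629).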

How the results depend on the processing

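The members' median stayed below 0 in every alternative run, and Rap1gds1 stayed called, between -2.68 and -2.05. The number of members that fell was 33, where 9.15% of all tested genes fell. It was 60 under library total scaling (16.9%), 20 with DESeq2 (7.66%) and 13 at a threshold of 0.01 (5.01%). With a library left out it was 19 to 31 (6.87% to 8.54%). With DESeq2 and at 0.01 the share of members that fell was close to that of all tested genes. Zfp57, Zfp622 and Zfp568, not called, passed in 9, 7 and 5 of 19 alternatives. Of the 33 falls, 26 were called on the FPKM scale, 30 with the length and GC correction, 33 with total scaling and 21 without knockdown replicate 4. The number of members that rose was 3, with 0 under total scaling, DESeq2, a threshold of 0.01, FPKM, and the length and GC correction, and 0 to 3 with a library left out. At an unadjusted p under 0.05 those fits had 2, 3, 4, 2 and 4 higher members, and limma voom called 2. Of other zf-C2H2 genes 2 rose, with 1 under total scaling, DESeq2, voom and the threshold of 0.01, 0 on the FPKM scale (1 at an unadjusted p under 0.05) and 1 to 3 with a library left out, and 26 fell, with 17 at 0.01 and 17 to 26 with a library left out. Of TRIM28 partners 6 rose, with 3 under total scaling, 2 with FPKM and 4 to 6 with a library left out, and 4 fell, with 2 at 0.01 and 2 to 5 with a library left out. Their median turned to -0.017 with total scaling and -0.016 with FPKM.

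Single members near 0 turned sign. Total scaling gave -0.034 for Zfp367, -0.047 for Zfp664, -0.012 for Zfp148 and -0.00028 for Zfp335. FPKM gave -0.032, -0.045, -0.029 and -0.0064 for the same genes, and the length and GC correction gave -0.056 for Zfp148. With a library left out Zfp664 ranged from -0.0096 to 0.033, Zfp410 from -0.052 to 0.032, Zfp148 from -0.0038 to 0.072 and Zfp335 from -0.00028 to 0.117. The cause was not tested in any of these cases.

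With the replicate number as a block 46 members fell and 3 rose (10.7% and 12.3% of all tested genes). Same-numbered deviations correlated at 0.04, 0.10, -0.03 and 0.07, and numbers 1, 2 and 4, but not 3, correlated best with themselves. As not every pair was above 0.1, the numbers were not taken as pairs, and shared handling was not tested. Depth limits members under 5 CPM, whose standard errors had a median of 0.23 on the log2 scale, and changes of 0.3 were often missed in simulation.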
